A study of Homo sapiens with 6 samples.

Results

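The genes that encode the subunits of RNA polymerases I, II and III were examined in native chromatin immunoprecipitation sequencing (ChIP-seq) of U2OS cells, a human osteosarcoma line. Members were the protein coding genes of the GENCODE annotation on GRCh37 with a symbol of the form POLR1, POLR2 or POLR3 followed by a letter. This rule took 33 gene symbols of 20136 protein coding symbols: 8 POLR1 genes, 15 POLR2 genes and 10 POLR3 genes. Peaks were scored within 1 kb of the transcription start site (TSS) of each gene's canonical transcript. The Pro-MMP2-3XHA line is U2OS with stable, constitutive expression of tagged matrix metalloproteinase 2 (MMP-2) in its pro-form, the 3XHA tag being at the C-terminus. In this line the tag was precipitated with an HA antibody in 3 replicates and the histone mark H3K4me3 in 1 library. In U2OS WT cells, which carry no tagged protein, H3K4me3 was precipitated in 1 library, and the HA precipitation was not analysed here. All cells were collected 2 days past confluence, without crosslinking. The tagged line is 1 stable line. The labels do not say how the 3 HA replicates were grown, and the study's methods describe them as independent biological experiments. Peak lists hold no expression values, so the identity of the cells was not checked against marker genes.

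RNA polymerase I transcribes the large ribosomal RNA precursor, polymerase II transcribes messenger RNAs and most small nuclear RNAs, and polymerase III transcribes transfer RNAs, 5S ribosomal RNA and other short RNAs. Each enzyme is built around a pair of large subunits that form the catalytic centre, and some small subunits are used by more than 1 enzyme. All of their genes are themselves transcribed by polymerase II, from promoters that in dividing cells are normally marked by H3K4me3. MMP-2 is best known as a secreted protease and also acts in the nucleus, where it can cut the tail of histone H3.

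An HA peak in the list made from the merged replicates lay at 18 of the 33 subunit genes (54.5%, exact 95% binomial interval 36.4 to 71.9%), where 30.1% of all protein coding genes had such a peak. Nearly all subunit genes carried H3K4me3, with 32 of 33 marked in the Pro-MMP2-3XHA line and 33 of 33 in WT, against 60.5% and 64.3% of all genes. Among genes with H3K4me3 in both lines, 18 of 32 subunit genes (56.3%, interval 37.7 to 73.6%) had a merged HA peak and 49.2% of all such genes had one. The interval for the subunit genes included that background. With the 1 kb or wider H3K4me3 regions of the Pro-MMP2-3XHA line, 15 of 24 subunit genes (62.5%) and 58.1% of all genes had a merged HA peak.

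The replicates differed in how many peaks they held. Replicate 1 had 6401 peaks and gave a peak at 13 subunit genes (39.4%, with 21.8% of all genes). Replicate 2 had 9193 peaks and gave 19 (57.6%, with 29.6% of all genes), and replicate 3 had 8933 peaks and gave 21 (63.6%, with 30.4% of all genes). Peaks were present in every replicate at 11 subunit genes (33.3%, with 17.3% of all genes). Among genes with H3K4me3 in both lines, these were 34.4% of the subunit genes and 28.4% of all genes. Replicate 1 limited this count, because 17 subunit genes had a peak in both of the other replicates. At least 1 HA list had a peak at 24 subunit genes (72.7%, with 37.9% of all genes and 61.6% of those with H3K4me3 in both lines). The median HA summit held 50, 44 and 41 fragments in replicates 1 to 3. The median control background was 2, counted at the depth of the control. The fitted ratios of HA depth to control depth were 3.57, 2.81 and 3.00, so fragments and background are on unlike scales. A gene without a peak is a gene where enrichment was not detectable at this depth.

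Each polymerase had genes with and without HA peaks. A merged HA peak lay at 4 of 8 polymerase I genes (50%, interval 15.7 to 84.3%), 8 of 15 polymerase II genes (53.3%, interval 26.6 to 78.7%) and 6 of 10 polymerase III genes (60%, interval 26.2 to 87.8%). Peaks in every replicate were found at 2, 5 and 4 of these genes. POLR2J, POLR2J2 and POLR2J3, whose values are uncertain as described below, had no merged peak. Without them a merged peak lay at 8 of 12 polymerase II genes and at 18 of 30 subunit genes. By place in the enzymes, a merged peak lay at 3 of 6 genes for subunits found in polymerase I alone, 1 of 2 for those shared by polymerases I and III, 4 of 9 for polymerase II alone, 3 of 5 for those shared by all 3 enzymes and 6 of 10 for polymerase III alone. The intervals overlapped throughout, and no difference between the polymerases was resolved with these numbers of genes.

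**Figure D1:**
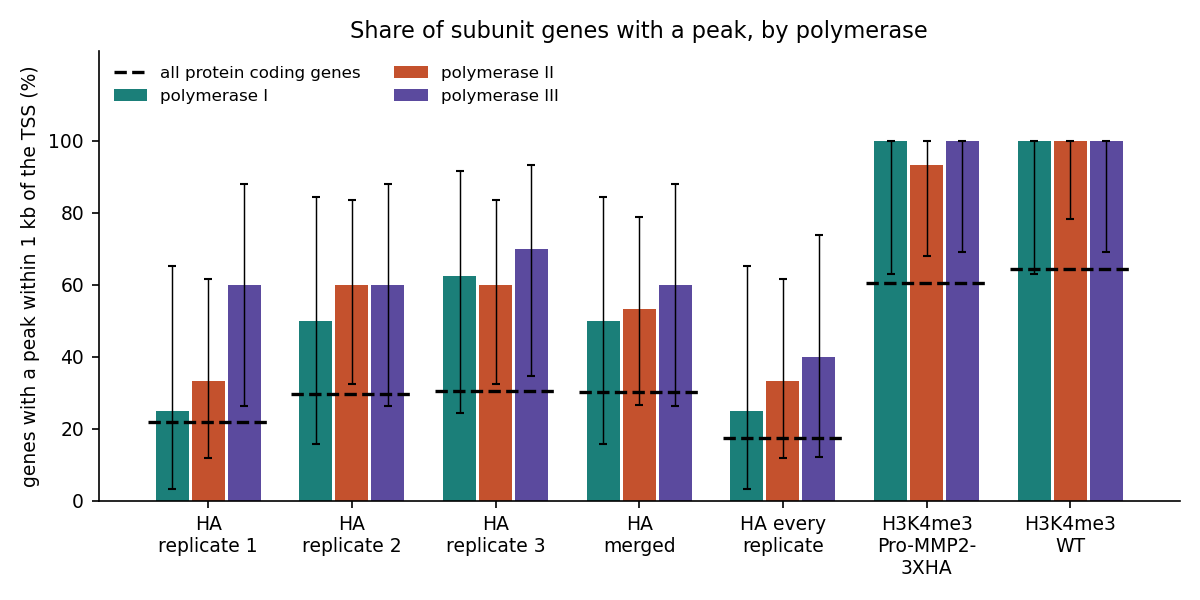
Bars give the percent of polymerase I (8), II (15) and III (10) subunit genes with a peak within 1 kb of the TSS in each list, with exact 95% binomial intervals, and dashed lines give the percent of all 20136 protein coding genes. The HA bars of the 3 polymerases overlap in their intervals, and H3K4me3 bars lie between 93.3 and 100%.

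POLR2A, which encodes the largest polymerase II subunit with its C-terminal repeat domain, had the highest HA enrichment of the family. Fold enrichment is relative to the local background of the control used in peak calling, which the peak names mark as an HA control without naming the library. For POLR2A it was 12.9, 16.8 and 16.5 in replicates 1 to 3, a mean of 15.4 ± 2.19 (SD, n = 3). All 3 values were above the 99th percentile of genes with a peak in the same replicate. The summits rested on 180, 186 and 195 fragments and lay 54, 99 and 91 bp downstream of the TSS. The merged peak covered chr17:7386936-7388084 (GRCh37, 1149 bp) and so spanned the TSS on both sides. The 100 bases before that TSS are shown for the sequence at this strongest site, with GGGCGG boxes, the core of SP and KLF factor sites, in capitals.
POLR2A, chr17:7387585-7387684, plus strand, 100 bases before the TSS: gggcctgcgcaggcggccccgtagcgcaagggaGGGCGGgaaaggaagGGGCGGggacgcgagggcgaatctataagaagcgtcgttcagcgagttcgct

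POLR2B, the second large subunit and partner of POLR2A in the catalytic centre, was more variable, with fold enrichments of 3.16, 6.39 and 4.56. Its summits lay at -955, -250 and -218 bp from the canonical TSS, and the lowest value, in replicate 1, came from the place most distant from it. The gene record of POLR2B begins before that TSS, at chr4:57843888, and all of these summits lay within the record. They held 64, 51 and 38 fragments in replicates 1 to 3, over control backgrounds of 5, 2 and 2. POLR2D, whose product forms the stalk of polymerase II with that of POLR2G, had peaks of 5.93 and 7.36 fold in replicates 2 and 3 and no peak in replicate 1. POLR2G had a peak only in replicate 3, of 4.84 fold, and a merged peak. POLR2C, which encodes a subunit of the assembly platform, had a single peak of 3.19 fold in replicate 2 and was missing from the merged list. POLR2I, which encodes the small zinc-binding subunit that aids proofreading, had no peak in any HA list although its H3K4me3 region was 2024 bp wide in the Pro-MMP2-3XHA line. POLR2M encodes Gdown1, a protein that associates with polymerase II, and had peaks of 6.32, 3.69 and 4.92 fold.

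Of the 5 subunits used by all 3 enzymes, POLR2H and POLR2L had strong peaks. POLR2H gave 6.10, 8.76 and 7.07 fold (mean 7.31 ± 1.34, SD, n = 3) and POLR2L gave 5.94, 6.63 and 8.54 fold (mean 7.04 ± 1.35, SD, n = 3). POLR2F had no peak in replicate 1 and gave 2.59 and 2.86 fold in replicates 2 and 3, below both of these genes. POLR2F values were below the 1st percentile of genes with a peak, although its summits held 48 and 57 fragments. The control background at both summits was 6, where the median over all summits of these replicates was 2. POLR2K had peaks of 3.67 and 4.93 fold in replicates 2 and 3 without a merged peak, and POLR2E had none. Genes for subunits that work in the same enzymes therefore ranged from no detected HA peak to 8.76 fold.

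The 3 near-identical genes POLR2J, POLR2J2 and POLR2J3 had no HA peak and very narrow H3K4me3 regions. The widths were 312 and 304 bp for POLR2J and POLR2J2 in the Pro-MMP2-3XHA line, POLR2J3 had no region there, and all 3 had regions in WT of 404, 382 and 318 bp. POLR2J encodes the partner of the POLR2C product in the assembly platform, and the other genes are copies of it on the same chromosome. Of the 970 overlapping 31-base words in the 1000 bp around each TSS, 75.9% (POLR2J), 81.2% (POLR2J2) and 75.6% (POLR2J3) also occurred in that window of another copy. Reads with a mapping quality under 30 were removed before peaks were called, so values at these genes are uncertain, and their lack of HA peaks was not separated from the loss of reads that fit several copies.

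Polymerase III genes were led by POLR3D, which encodes a subunit of the heterodimer involved in initiation and termination. Its peaks had 9.59, 13.6 and 7.98 fold enrichment (mean 10.4 ± 2.91, SD, n = 3), the second highest mean among the subunit genes, and summits at -144, -118 and -141 bp, upstream of the TSS. POLR3E, for the other subunit of that heterodimer, had only a 3.55 fold peak in replicate 1. The trimer that opens the promoter is made from the products of POLR3C, POLR3F and either POLR3G or POLR3GL. POLR3C gave 3.73, 4.40 and 4.20 fold, POLR3F gave 4.88, 5.01 and 4.98 fold and POLR3GL gave 5.999, 5.56 and 4.56 fold. POLR3G, the form typical of stem and tumour cells, had peaks of 4.45 and 4.15 fold in replicates 1 and 3 and a merged peak. All 4 trimer genes therefore had a merged HA peak, where 49.2% of all genes with H3K4me3 in both lines had one. At POLR3C and POLR3G every replicate summit lay downstream of the TSS of an opposite-strand neighbour, RNF115 and MBLAC2. The merged peak counted for POLR3G ended 159 bp before the POLR3G TSS.

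The catalytic pair of polymerase III had lower fold enrichments than that of polymerase II in the replicates where they had peaks. POLR3A had 3.55 and 3.06 fold in replicates 2 and 3 and no peak in replicate 1. Its summits held 67 and 52 fragments over control backgrounds of 6 and 5. In the same replicates POLR2B summits held fewer fragments, 51 and 38, over a background of 2. POLR2A summits held more, 186 and 195, over a background of 3. POLR3A thus had lower fold enrichments than POLR2B in replicates 2 and 3, with more fragments and a higher control background. The cause of the difference was not tested. POLR3B had a single peak of 3.36 fold in replicate 3, with 38 fragments over a background of 3.07. POLR3K, for a small subunit involved in termination, had 4.50 fold in replicate 2 alone.

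Among polymerase I genes only POLR1B and POLR1C had a peak in every replicate. POLR1B, the second largest subunit, gave 4.61, 5.09 and 5.47 fold (mean 5.05 ± 0.431, SD, n = 3). POLR1C, which is shared with polymerase III, gave 4.19, 4.08 and 4.60 fold (mean 4.29 ± 0.272, SD, n = 3). A second merged peak of POLR1C lay within the gene record but upstream of the canonical TSS (centre at -6632 bp), near the TSS of LRRC73, with 5.49 and 8.36 fold in replicates 1 and 2. POLR1E and POLR1G, which encode a heterodimer specific to polymerase I, both had peaks in replicates 2 and 3. The values were 3.28 and 5.36 fold at POLR1E and 5.44 and 5.33 fold at POLR1G. POLR1F, a stalk subunit, had 3.50 fold in replicate 3 alone. POLR1A (the catalytic largest subunit), POLR1D (shared with polymerase III) and POLR1H (a small zinc-binding subunit) had no HA peak in any list.

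**Figure D2:**
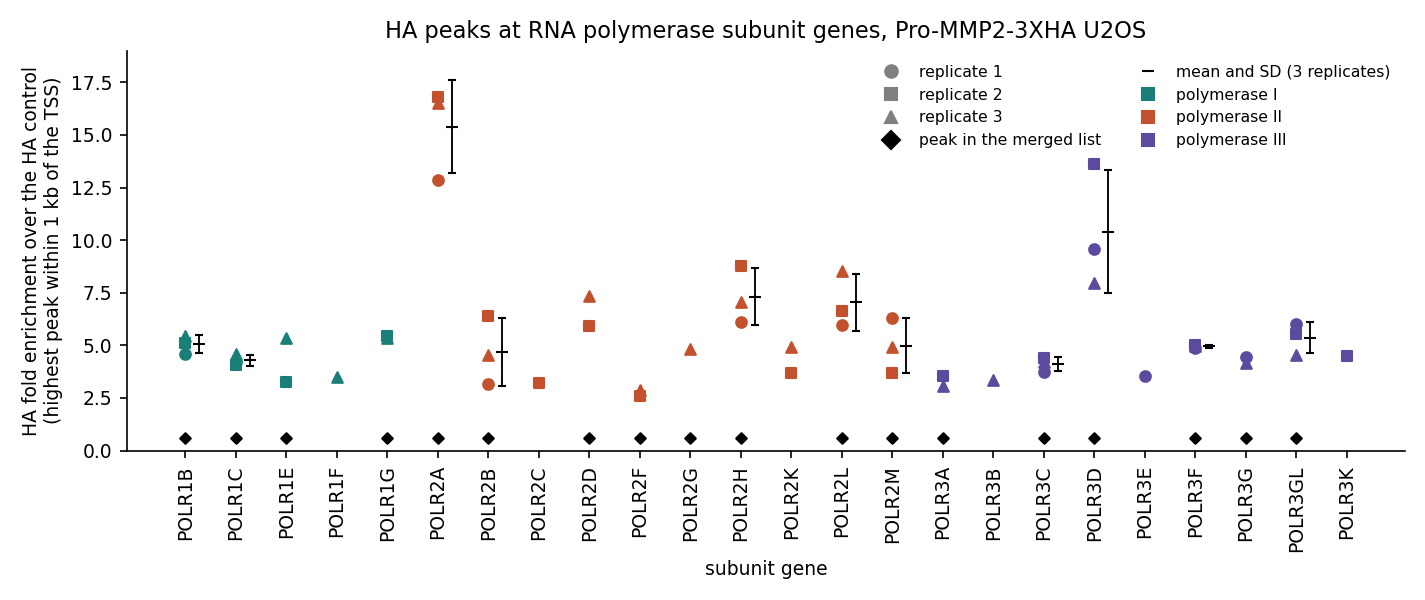
Each point is the fold enrichment over the peak caller's HA control of the highest HA peak within 1 kb of the TSS of a subunit gene in a replicate, bars give the mean and SD where all 3 replicates had a peak, and diamonds mark a peak in the merged list. POLR2A (12.9 to 16.8 fold) stands above the other genes in every replicate. POLR3D (7.98 to 13.6 fold) is next in replicates 1 and 2, while POLR2L (8.54 fold) is above it in replicate 3. The plot shows the 24 subunit genes with a peak in at least 1 replicate.

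Across the subunit genes with a peak, the median fold enrichment was 4.88, 5.01 and 4.92 in replicates 1 to 3 (mean 4.94 ± 0.0640, SD, n = 3). The medians over all genes with a peak in the same replicates were 4.98, 5.68 and 5.01 (mean 5.22 ± 0.393, SD, n = 3). In each replicate the median of the subunit genes was below that of all genes with a peak. By polymerase the means of the medians were 4.77 ± 0.495 for polymerase I, 5.65 ± 0.637 for polymerase II and 4.54 ± 0.298 for polymerase III (SD, n = 3). These medians cover only genes that passed the peak threshold in a replicate.

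Genes with no HA peak in any list included POLR1A, POLR1D, POLR1H, POLR2E, POLR2I, POLR2J, POLR2J2 and POLR2J3. Leaving aside the POLR2J copies, their H3K4me3 regions in the Pro-MMP2-3XHA line were 1912, 2778, 1551, 717 and 2024 bp wide for POLR1A, POLR1D, POLR1H, POLR2E and POLR2I. These regions were as wide as those of many subunit genes with HA peaks, and of these 5 only POLR2E had a width under 1 kb. Its nearest merged HA peak was 8704 bp from its TSS, and that of POLR1D was 197025 bp away.

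The position of the summit relative to the TSS differed within the family. Within 500 bp of the TSS, 7 of 12 summits (58.3%), 12 of 19 (63.2%) and 14 of 21 (66.7%) lay downstream in replicates 1 to 3, a mean of 62.7% ± 4.18 (SD, n = 3). Over all genes the mean was 60.2% ± 2.23 (SD, n = 3). Downstream summits of the subunit genes lay a median of 143, 126 and 127.5 bp into the gene, the region of the first nucleosome after the TSS. The mean share was 81.5% ± 17.0 for polymerase II genes, 66.7% ± 28.9 for polymerase I genes and 42.1% ± 8.36 for polymerase III genes (SD, n = 3). In polymerase III genes 2 of 6, 3 of 6 and 3 of 7 summits were downstream. POLR1B changed side between replicates, with summits at -206, -201 and 116 bp, and so did POLR1E, at -259 and 144 bp. The same held for POLR2L, at 153, 179 and -136 bp, and POLR3F, at -36, 14 and -50 bp.

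A neighbouring gene lay back to back with many of these genes. A protein coding gene on the opposite strand started within 1 kb upstream of 11 of the 33 subunit genes (33.3%, interval 18.0 to 51.8%), where 9.36% of all genes and 14.8% of genes with H3K4me3 in both lines had such a neighbour. This arrangement is called a divergent or bidirectional promoter. The pairs were POLR1A with PTCD3, POLR1C with YIPF3, POLR2F with C22orf23, POLR2H with CLCN2, POLR2I with TBCB, POLR2L with TSPAN4, POLR3C with RNF115, POLR3F with DZANK1, POLR3G with MBLAC2, POLR3GL with ANKRD34A and POLR3K with SNRNP25. Of the polymerase III genes 5 of 10 were in such a pair, of polymerase II genes 4 of 15 and of polymerase I genes 2 of 8. A merged HA peak lay at 8 of the 11 paired subunit genes (72.7%, interval 39.0 to 94.0%) and 10 of the 22 others (45.5%, interval 24.4 to 67.8%). The corresponding shares of all genes were 57.6% with a divergent neighbour and 27.2% without. These shares are not matched for H3K4me3. The mark was present in both lines at 95.4% of all genes with such a neighbour and 56.7% of those without. Among subunit genes it was present at 11 of 11 and 21 of 22.

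At a divergent pair a peak can be counted for both genes, and the summit showed on which side it lay. Of 23 replicate summits at 9 paired subunit genes, 14 lay downstream of the subunit gene's own TSS, 6 lay downstream of the neighbour's TSS and 3 lay between them. The 6 summits on the neighbour's side were all at polymerase III genes. At POLR3C they lay 173, 177 and 172 bp into RNF115, at POLR3G 150 and 118 bp into MBLAC2 and at POLR3K 196 bp into SNRNP25. By contrast, POLR2H summits lay 154, 224 and 217 bp into POLR2H, POLR1C summits 169, 177 and 139 bp into POLR1C and POLR3GL summits 143, 129 and 143 bp into POLR3GL. POLR3D was the polymerase III gene with upstream summits and no divergent protein coding neighbour within 1 kb.

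**Figure D3:**
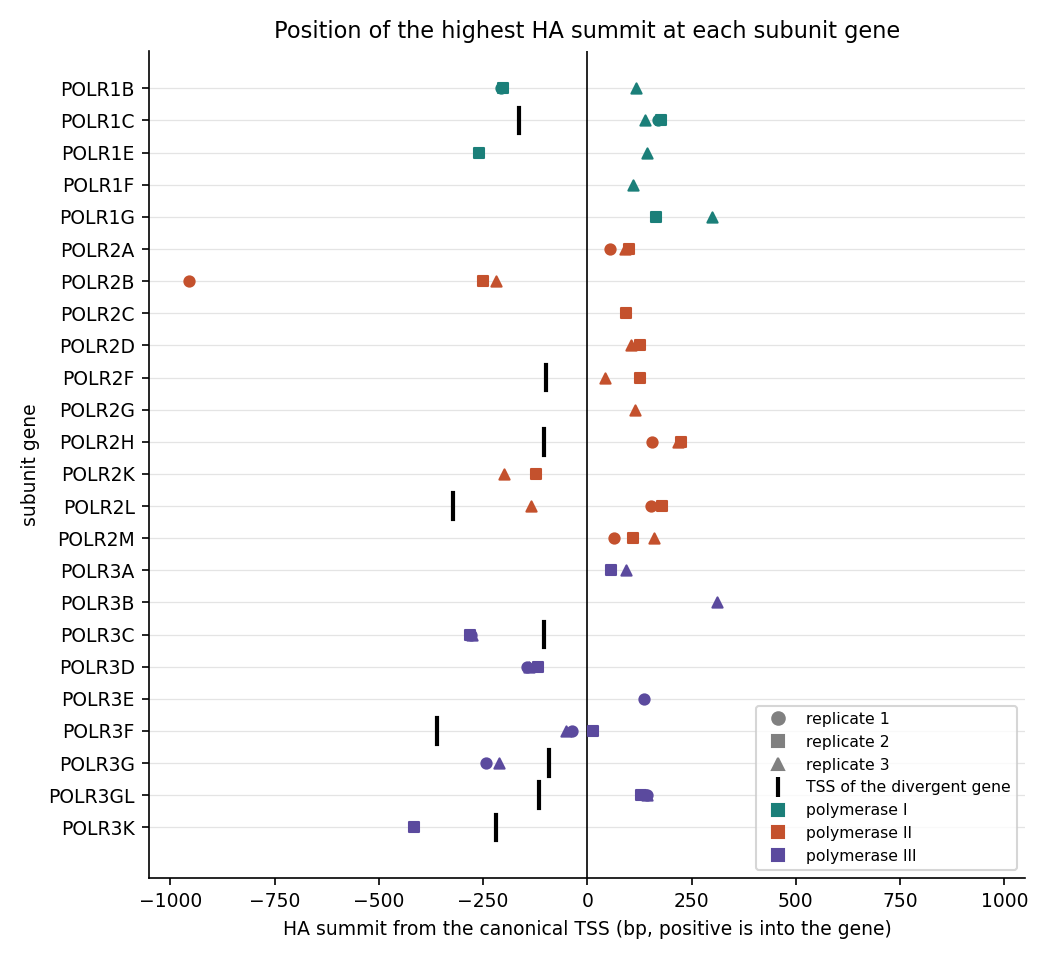
Points give the position of the highest HA summit of each replicate in bp from the canonical TSS (positive into the gene), and thick ticks give the TSS of a divergent protein coding neighbour. At POLR3C, POLR3G and POLR3K all summits lie beyond the neighbour's tick, and at POLR1C, POLR2F, POLR2H and POLR3GL they lie to the right of the subunit gene's TSS.

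The sequences between the start sites are shown for some of the pairs with TSSs within 300 bp of each other. Their shortness follows from this choice, and pairs further apart, such as POLR2I and TBCB (593 bp), were left out. Runs are given from GRCh37 on the strand of the subunit gene, from the base after the neighbour's TSS to the base before the subunit gene's TSS, with GC boxes (GGGCGG), the box of the factor NF-Y (CCAAT) and the word bound by ETS factors (CCGGAAG) in capitals on either strand. At the first 3 pairs all HA summits lay on the side of the subunit gene, and at the last 2 they lay on the side of the neighbour.
POLR1C, chr6:43484665-43484826, plus strand, 162 bases from YIPF3: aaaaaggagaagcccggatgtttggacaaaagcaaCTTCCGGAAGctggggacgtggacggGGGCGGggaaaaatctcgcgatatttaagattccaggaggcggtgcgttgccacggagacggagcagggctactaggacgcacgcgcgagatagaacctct
POLR2H, chr3:184079394-184079497, plus strand, 104 bases from CLCN2: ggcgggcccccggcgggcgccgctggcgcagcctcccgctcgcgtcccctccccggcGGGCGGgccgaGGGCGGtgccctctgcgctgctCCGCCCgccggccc
POLR3GL, chr1:145470401-145470514, minus strand, 114 bases from ANKRD34A: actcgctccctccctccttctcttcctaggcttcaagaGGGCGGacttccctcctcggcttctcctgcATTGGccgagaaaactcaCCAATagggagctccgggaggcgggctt
POLR3G, chr5:89770589-89770680, plus strand, 92 bases from MBLAC2: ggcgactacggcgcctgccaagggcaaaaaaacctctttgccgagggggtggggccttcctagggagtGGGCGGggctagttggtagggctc
POLR3K, chr16:103609-103827, minus strand, 219 bases from SNRNP25: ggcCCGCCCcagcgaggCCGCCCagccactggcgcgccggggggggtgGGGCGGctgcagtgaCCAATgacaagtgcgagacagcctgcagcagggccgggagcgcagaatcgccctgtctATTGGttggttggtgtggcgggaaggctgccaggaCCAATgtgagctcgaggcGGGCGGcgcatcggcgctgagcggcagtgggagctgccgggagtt
The POLR2H run was 88.5% G and C and the POLR1C run 56.8%. In the POLR1C run the CCGGAAG word occurred on both strands and overlapped itself, so its capitals form 1 block. A GC box was present in all 5 runs.

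Promoter sequence was then compared over the whole family, in the window from 250 bases before to 49 bases after the TSS. The median G and C content was 63.7% for the 33 subunit genes, 63.0% for those with a merged HA peak and 65.7% for those without. It was 67.0% for genes with H3K4me3 in both lines, and equal there with and without a merged HA peak. Of 8 short motifs searched on both strands, the ETS word CCGGAAG was in 13 of 33 subunit promoters (39.4%), 14.0% of all promoters and 20.8% of those with H3K4me3 in both lines. It was in 8 of 18 subunit genes with a merged HA peak and 5 of 15 without. The GC box GGGCGG was in 25 of 33 (75.8%), close to the 77.1% of promoters with H3K4me3 in both lines. The CCAAT box was in 8 of 33 (24.2%), against 36.2% of those promoters, and TATAAA in 1 of 33, that of POLR2M, against 4.43%. Over all promoters these 3 motifs were in 61.0, 35.9 and 9.81%. The NRF1 word GCGCATGCG was in 4 of 33 (12.1%, against 4.04% of those promoters), of which 3 were the POLR2J copies. The YY1 word AAGATGGCG was in 2 (6.06%, against 4.51%), the E-box CACGTG in 5 (15.2%, against 10.3%) and the CRE word TGACGTCA in 1 (3.03%, against 3.63%). Over all promoters the 4 shares were 2.69, 2.82, 8.75 and 2.68%. A match describes letters in this window and does not show that a factor was bound.

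Merged HA peaks at subunit genes were of ordinary width, with a median of 558 bp (n = 18) and 496 bp over all genes. Only POLR2L and POLR2H had merged peaks wider than 2 kb, 2 of 18 genes (11.1%), where 8.24% of all genes with a merged peak had such a width. The POLR2L peak was 8324 bp, at chr11:834535-842858, and covered the whole 2809 bp of the POLR2L transcript, the TSS of TSPAN4 and 4297 bp of CD151, a neighbouring gene for a membrane protein of the tetraspanin family. The POLR2H peak was 2302 bp, at chr3:184079524-184081825, began 26 bp into the gene and lay within it. In the replicates the highest POLR2L peak was 608, 2479 and 2202 bp wide and that of POLR2H 266, 1057 and 679 bp.

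H3K4me3 regions were wider in WT than in the Pro-MMP2-3XHA line at 32 of 32 subunit genes with both, as at 93.1% of all genes with both. The median width was 1543 bp in the Pro-MMP2-3XHA line and 2040 bp in WT, and over all genes it was 1432 and 1818 bp. The median ratio of WT to Pro-MMP2-3XHA widths was 1.39 (order-statistic 95% interval 1.25 to 1.52) at subunit genes and 1.28 over all genes. There was 1 library per line, so the ratio has no replicate check and includes any difference in depth or peak calling between the libraries. The largest ratios were 2.51 at POLR2G (516 and 1293 bp), 2.20 at POLR3B (836 and 1841 bp) and 1.88 at POLR1E (1102 and 2077 bp). The smallest were 1.05 at POLR2M (1660 and 1737 bp) and 1.07 at POLR2B (4131 and 4435 bp), where the region was the widest of the family in the Pro-MMP2-3XHA line.

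Subunit genes with a merged HA peak had a median ratio of 1.41 (n = 18) and those without 1.30 (n = 14), and over all genes the medians were 1.23 and 1.34. The order was thus opposite in the family and in all genes, but the intervals for the subunit genes, 1.23 to 1.53 and 1.18 to 1.54, overlapped almost fully. The H3K4me3 regions of the Pro-MMP2-3XHA line had a median of 1660 bp at subunit genes with a merged HA peak and 1309.5 bp at those without. Over all genes these medians were 1682 and 1195 bp. POLR2A, with the highest HA enrichment, had 2311 bp in the Pro-MMP2-3XHA line and 3503 bp in WT.

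**Figure D4:**
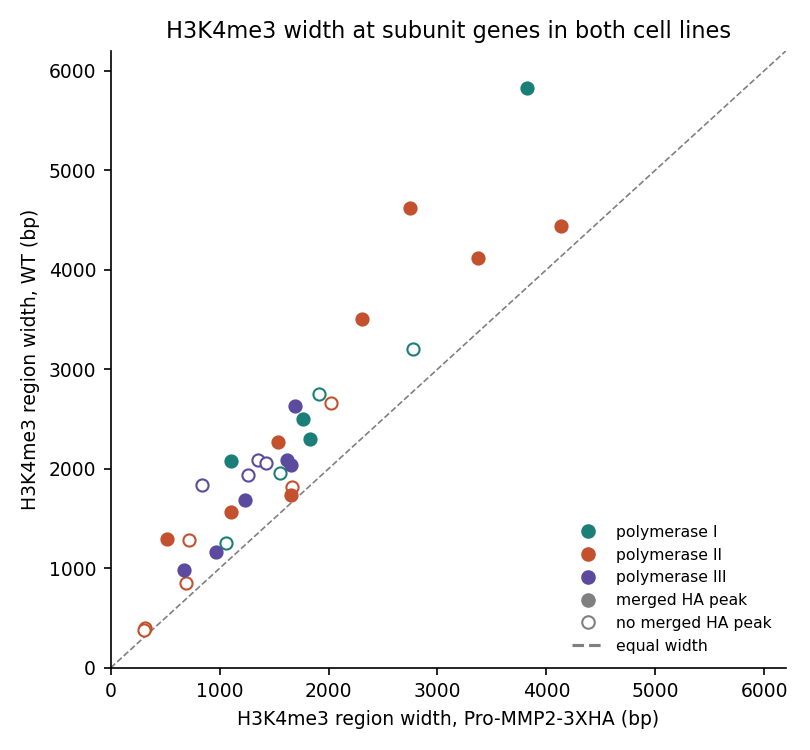
Each point is a subunit gene with an H3K4me3 region near its TSS in both lines, with the width in the Pro-MMP2-3XHA line and in WT in bp, filled where a merged HA peak was present. All 32 points lie above the dashed line of equal width, and filled and open points overlap.

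The genes for factors that work with these enzymes, and 5 genes for mitochondrial transcription, were counted in fixed lists. Some genes were in more than 1 list, so the counts by list do not add up to the total. A merged HA peak lay at 57 of the 86 listed genes (66.3%), of which 85 had H3K4me3 in both lines, and 40 had peaks in every replicate. Of the 85 listed genes with H3K4me3 in both lines, 67.1% had a merged peak and 47.1% had peaks in every replicate, against 49.2% and 28.4% of all genes so marked. By list, a merged peak lay at 4 of 8 polymerase I initiation factors, 19 of 31 polymerase II general transcription factors, 15 of 19 polymerase II pausing and elongation factors, 14 of 17 polymerase III initiation factors and 5 of 8 polymerase assembly and import factors. Of 5 genes for mitochondrial transcription, which uses an unrelated polymerase, 2 had a merged peak. The highest mean fold enrichment in each list, in that order, was at UBTF (6.19 ± 1.01), TAF10 (10.4 ± 3.06), CCNT1 (6.65 ± 2.91), MAF1 (8.95 ± 2.35), GPN1 (4.62 ± 0.554) and TFAM (5.92 ± 1.35; SD, n = 3). UBTF opens ribosomal DNA for polymerase I, TAF10 is a subunit of TFIID, CCNT1 is the cyclin of the elongation kinase P-TEFb, and MAF1 is the repressor of polymerase III. None of these means reached that of POLR2A. No HA list had a peak at 18 of those 85 genes (21.2%), where 38.4% of all genes with H3K4me3 in both lines had none. Among the 18 were BRF1, CCNH, CDC73, ELL and ELL2.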

How the data were processed

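The authors digested native chromatin with MNase, trimmed paired reads with Trim Galore 0.6.0, aligned them to hg19/GRCh37 with Bowtie2 2.3.5.1, kept reads with MAPQ of at least 30 (SAMtools 1.9), removed duplicates with Picard and called peaks with MACS2 3.0.0a6 (q-value 0.05, minimum length 147 bp). The deposited replicate lists give, for each HA peak, a fold enrichment ratio over the control (the methods say input or control precipitation, and the peak names an HA control, with the library not stated), −log10 p and −log10 q values, and a score. The deposited merged HA list and both H3K4me3 lists are intervals only, joined from narrow and broad calls. Versions come from the submitters' processing notes.

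Peaks were assigned to the canonical TSS of GENCODE version 44 on GRCh37 (20162 protein coding records, of which 281 had no canonical transcript and used the 5′ end of the record). The 33 symbols had 34 records, POLR2J3 having 2. Among overlapping summit lines the highest was used. Fragments at summits were solved from fold and p-value (94.0, 96.9 and 96.1% of summits resolved in replicates 1 to 3, checked on simulated data). Intervals are exact binomial (95%) and cover counting of genes only. No test was run over genes, and H3K4me3 had 1 library per line. The study's methods give only a lower limit on reads per library, and exact depths are not given in the sources used here. Subunit genes were to be named individually, and the values of 1 of them are not reported here. Of the other lists the gene with the highest mean fold and up to 5 genes without HA peaks are named. Printed sequences were limited to the gene with the highest fold and to divergent pairs within 300 bp whose summits all lay on the same side and whose gap overlapped a protein coding exon by at most 30 bases, which left out 2 runs. Members and lists were chosen with earlier results of these data known. Python 3.11.15, numpy 2.4.6, scipy 1.17.1 and matplotlib 3.10.9 were used.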

Additional observations from a re-analysis of the deposited data

How the results depend on the processing

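The 10 results were recomputed under 84 alternatives. Of these, 68 stayed within 1.5 times the count, 1 SD or the interval of the median, and 16 did not. A turn in direction could be scored only for the share of summits downstream, which had 10 alternatives, and none of those turned. With only the TSS base itself as window, peaks in every replicate were found at 5 subunit genes, a merged peak at 2 polymerase I genes, and the median fold enrichment was 5.46. The median was 5.11 with 500 bp, 5.30 with the 5′ end of the gene record, 5.16 with the TSSs of all protein coding transcripts, and 5.26 and 5.60 with q-values of 0.01 and 0.001. These medians were compared with an SD of 0.0640. Restricting merged peaks to those found in every replicate left 11 subunit genes, 2 polymerase I genes and 5 polymerase II genes, and restricting polymerase II to its own subunits left 4 of 9. Without a replicate, peaks in all the others were found at 11 to 17 subunit genes, with 17 where replicate 1 was left out. The share of summits downstream was 68.4% within 250 bp, 74.5% from the 5′ end of the gene record and 58.1% at a q-value of 0.001. The cause of these shifts was not tested. Depth and the 1 H3K4me3 library per line limit what an absent peak or a width ratio shows. No paired analysis was possible because HA and H3K4me3 groups share only replicate number 1 and no result comes from a test.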
